A study of Triticum aestivum with 45 samples.

Results

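The genes described here are 8 copies of 3 clock and photoperiod genes of hexaploid bread wheat (Triticum aestivum), measured by RNA sequencing of spikelets, the small flower-bearing branches of the wheat spike. They are PPD1 on chromosomes 2A (TraesCS2A01G081900) and 2D (TraesCS2D01G079600), ELF3 on chromosomes 1A (TraesCS1A01G443200), 1B (TraesCS1B01G477400) and 1D (TraesCS1D01G451200), and GIGANTEA (GI) on chromosomes 3A (TraesCS3A01G116300), 3B (TraesCS3B01G135400) and 3D (TraesCS3D01G118200). They were chosen by identifier, are 8 of the 110790 identifiers listed, and are called by gene and chromosome below, for example PPD1-2A. The gene names came with the choice of the members, since the count table carries identifiers alone. A PPD1 copy on chromosome 2B was not analysed here. All 8 passed the filter on low counts, together with 63091 genes in all.

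The spikelets came from 3 genotypes: DH1 (GS-1-EM0040), a doubled haploid line from CIMMYT11 crossed to Superb; DH2 (GS-1-EM0168), a doubled haploid line from CM82036 crossed to Superb; and Superb itself, a Canadian hard red spring wheat. Both lines thus carry Superb as a repeated parent, and each is a single line. At anthesis (flowering), spikes were sprayed with 100 µM methyl jasmonate (MeJA, the methyl ester of a wound and defence hormone), 100 µM salicylic acid (SA, a hormone of defence against pathogens), 100 µM ethephon (which releases the hormone ethylene) or water, and were harvested 8 h later. Untreated spikes were harvested at 0 h. Each of the 15 groups held 3 libraries, 45 in all. The labels give 5 plants per treatment group but do not say whether the 3 libraries of a group came from separate plants. The p-values therefore speak only for the spread among these samples, possibly a technical one. Water at 8 h differs from untreated at 0 h by the spray, by the time of day and by 8 h of development, which cannot be told apart, and the clock time of either harvest is not in the labels.

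PPD1 encodes a pseudo-response regulator, a clock-related protein that promotes flowering of wheat in long days by raising the florigen gene FT1. ELF3 belongs to the evening complex, a repressor of clock and photoperiod genes, and in wheat and barley loss of ELF3 raises PPD1 expression at night and speeds flowering. GI is a large clock-controlled protein that in Arabidopsis links the clock to the photoperiod pathway through CONSTANS. Transcripts of such genes are known to cycle over the day in leaves of cereals and Arabidopsis.

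The shallowest library held 6446374 counts, the median one 11251553 and the deepest 17940396. The libraries held 3 to 451 counts of a PPD1 copy, 55 to 604 of an ELF3 copy and 209 to 1436 of a GI copy, so few counts stand behind the PPD1 levels at 8 h. Levels are in CPM, counts scaled to the library's total times its TMM factor, which is edgeR's correction of that total. They are not corrected for gene length and are therefore compared between samples and not between genes. The TMM factors differed by condition, from 0.870 to 0.985 after MeJA, 1.00 to 1.12 after water and 0.931 to 0.990 untreated. Small changes between these conditions therefore depend on the scaling, for which only TMM and DESeq2's size factors were tried. In 2 libraries, genes of another genotype were present, by a check on genes found in a single genotype. No gene qualified as found in Superb alone, so the check could not see Superb material in DH1 or DH2 libraries. In the library labelled Superb ethephon replicate 1, the 36 genes found in DH1 alone had a median of 30.9% of their DH1 level, against at most 1.13% in the other 14 Superb libraries. In the library labelled DH1 ethephon replicate 1, the 30 genes found in DH2 alone had a median of 12.5% of their DH2 level, against at most 0.388% in the other 14 DH1 libraries. Leaving out both libraries changed no call of a single copy, and the mean changes of the PPD1 and GI copies after ethephon are given with and without them. The labelled tissue was not checked against markers, since no gene names are paired with the identifiers.

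Both PPD1 copies fell between the untreated spikelets at 0 h and the water-sprayed spikelets at 8 h, in each of the 3 genotypes. PPD1-2A had 2.68, 3.57 and 2.21 CPM in DH1 after water, against 14.0, 11.8 and 12.3 CPM in untreated DH1. It had 2.19, 3.62 and 2.32 CPM in DH2 after water, against 13.4, 11.9 and 14.4 CPM in untreated DH2. In Superb it had 2.11, 2.75 and 1.78 CPM after water, against 10.54, 10.9 and 9.49 CPM untreated. The highest of the 9 water libraries lay below the lowest of the 9 untreated libraries. The log2 fold change was -2.14 (SE 0.29) in DH1, -2.32 (SE 0.29) in DH2 and -2.21 (SE 0.32) in Superb, with adjusted p of 6.64e-07, 1.05e-07 and 1.33e-06 by edgeR's quasi-likelihood test, Benjamini-Hochberg adjusted over all tested genes. In a whole spikelet, fewer cells that express a gene and less of its RNA per cell cannot be told apart.

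PPD1-2D followed the same course. It had 3.44, 2.78 and 3.21 CPM in DH1 after water, against 12.9, 12.1 and 11.6 CPM in untreated DH1. It had 4.25, 2.47 and 2.26 CPM in DH2 after water, against 13.2, 13.1 and 28.4 CPM in untreated DH2. In Superb it had 4.12, 3.37 and 1.78 CPM after water, against 15.6, 11.2 and 9.04 CPM untreated. The groups did not overlap in any genotype, and 1 library, DH2 untreated replicate 3, stood well above the other 8 untreated ones. The log2 fold change was -1.96 (SE 0.34) in DH1, -2.61 (SE 0.33) in DH2 and -1.92 (SE 0.35) in Superb, with edgeR adjusted p of 3.22e-05, 1.37e-07 and 5.69e-05. Without DH2 untreated replicate 3, the DH2 value was -2.12 with an adjusted p of 7.21e-06. Averaged over the genotypes, PPD1-2A stood at 0.214 times and PPD1-2D at 0.223 times the untreated level.

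**Figure D1:**
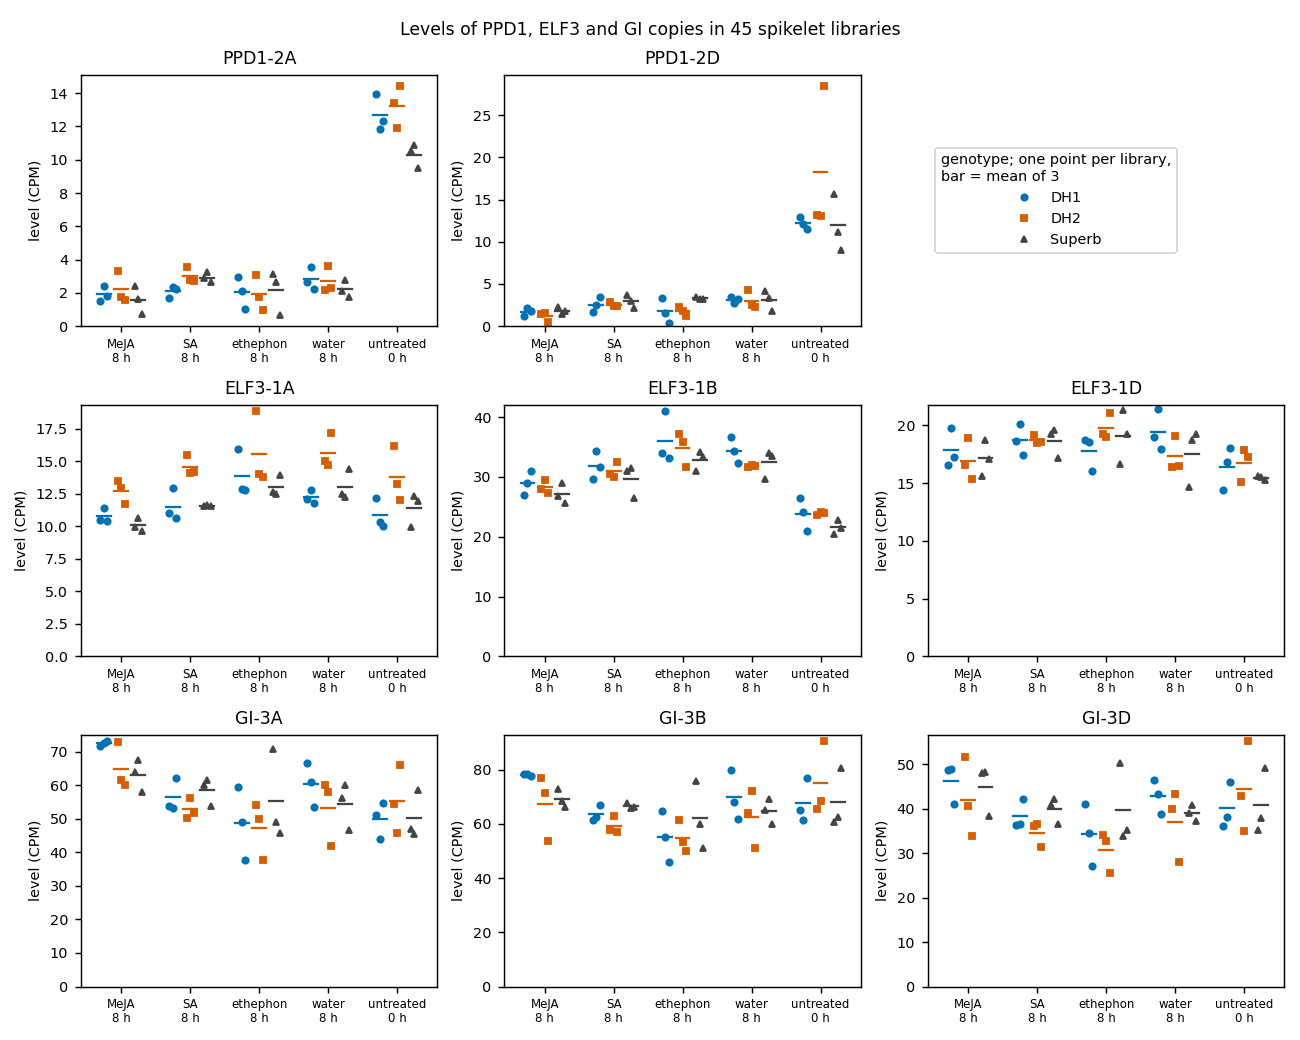
Level in CPM (y axis) of each PPD1, ELF3 and GI copy in the 5 conditions (x axis), with 1 point per library, a bar at the mean of 3 libraries, and DH1, DH2 and Superb side by side. The untreated PPD1-2A libraries, from 9.49 to 14.4 CPM, lie above all libraries taken at 8 h, whereas GI libraries of the same condition spread widely.

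ELF3 moved the other way, and mainly through the 1B copy. ELF3-1B had 36.7, 34.3 and 32.3 CPM in DH1 after water, against 26.5, 24.1 and 20.9 CPM in untreated DH1. It had 31.7, 32.0 and 31.8 CPM in DH2 after water, against 23.6, 24.1 and 23.9 CPM in untreated DH2, and the same direction held in Superb. The 9 water libraries (29.6 to 36.7 CPM) lay above the 9 untreated libraries (20.5 to 26.5 CPM). The log2 fold change was 0.53 (SE 0.10) in DH1, 0.41 (SE 0.10) in DH2 and 0.59 (SE 0.10) in Superb, with edgeR adjusted p of 4.89e-05, 0.00105 and 1.26e-05.

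The other ELF3 copies changed less. ELF3-1A ranged from 11.8 to 17.2 CPM with a median of 12.8 CPM in the water libraries, against 9.97 to 16.2 CPM with a median of 12.04 CPM in the untreated ones. ELF3-1D ranged from 14.7 to 21.4 CPM with a median of 18.8 CPM after water, against 14.4 to 18.0 CPM with a median of 15.6 CPM untreated. The groups overlapped for both copies, and neither copy was called within a genotype. Averaged over the genotypes, ELF3-1A had a log2 fold change of 0.19 (SE 0.07, edgeR adjusted p = 0.0287) and ELF3-1D one of 0.16 (SE 0.07, edgeR adjusted p = 0.0474). Both calls were lost with DESeq2, with DESeq2's size factors in edgeR and without the filter on low counts. Of 18 fits that left out 1 library, 9 kept the call of ELF3-1A and 5 that of ELF3-1D. ELF3-1A lost it without DH1 untreated replicate 2 or 3, DH1 water replicate 2, DH2 untreated replicate 2 or 3, DH2 water replicate 3, Superb untreated replicate 1 or 2 or Superb water replicate 3, with log2 fold changes down to 0.15 and adjusted p up to 0.119. ELF3-1D kept it without DH1 untreated replicate 3, DH1 water replicate 3, DH2 water replicate 1 or 3 or Superb water replicate 1, and lost it without any of the others, with log2 fold changes down to 0.10 and adjusted p up to 0.219. Summed ELF3 counts do not depend on which copy a read was given to if each read was counted once, which is not known. These sums rose in each genotype, by 0.37 in DH1, 0.25 in DH2 and 0.38 in Superb on the log2 scale (edgeR adjusted p of 8.91e-04, 0.0234 and 7.69e-04).

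The GI copies did not pass the test between 0 h and 8 h. GI-3A ranged from 41.9 to 66.7 CPM after water, against 44.0 to 66.1 CPM untreated. GI-3B ranged from 51.0 to 80.0 CPM after water, against 60.6 to 90.5 CPM untreated. GI-3D ranged from 28.0 to 46.5 CPM after water, against 35.1 to 55.1 CPM untreated. The groups overlapped for each copy. Averaged over the genotypes, the log2 fold change was 0.11 (95% interval -0.08 to 0.30) for GI-3A, -0.10 (-0.27 to 0.08) for GI-3B and -0.08 (-0.29 to 0.13) for GI-3D, with edgeR adjusted p of 0.36, 0.36 and 0.55. The intervals therefore hold changes of up to 0.30 on the log2 scale, and summed GI had -0.02 (SE 0.09, adjusted p = 0.855).

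In each genotype 2 members were called lower and 1 was called higher. Over all tested genes, 12.5% were called lower and 13.1% higher in DH1, 13.8% and 12.9% in DH2, and 13.6% and 13.9% in Superb. Both directions together came to 25.7% in DH1, 26.8% in DH2 and 27.5% in Superb, so that 3 of 8 members is not far from the share over all genes. The calls in the mean of the 3 genotypes were 5 of 8 members, 3 higher and 2 lower, beside 47.8% of all tested genes, 24.2% higher and 23.6% lower. In that mean the members' median log2 fold change was 0.01, beside -0.01 over all tested genes. No member passed the edgeR test, with 2 degrees of freedom, of a difference between genotypes in this change (unadjusted p from 0.275 to 0.999, adjusted p of 1 for each), in which 6 genes were called among all tested (0.00951%) and 2057 had an unadjusted p under 0.05.

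**Figure D2:**
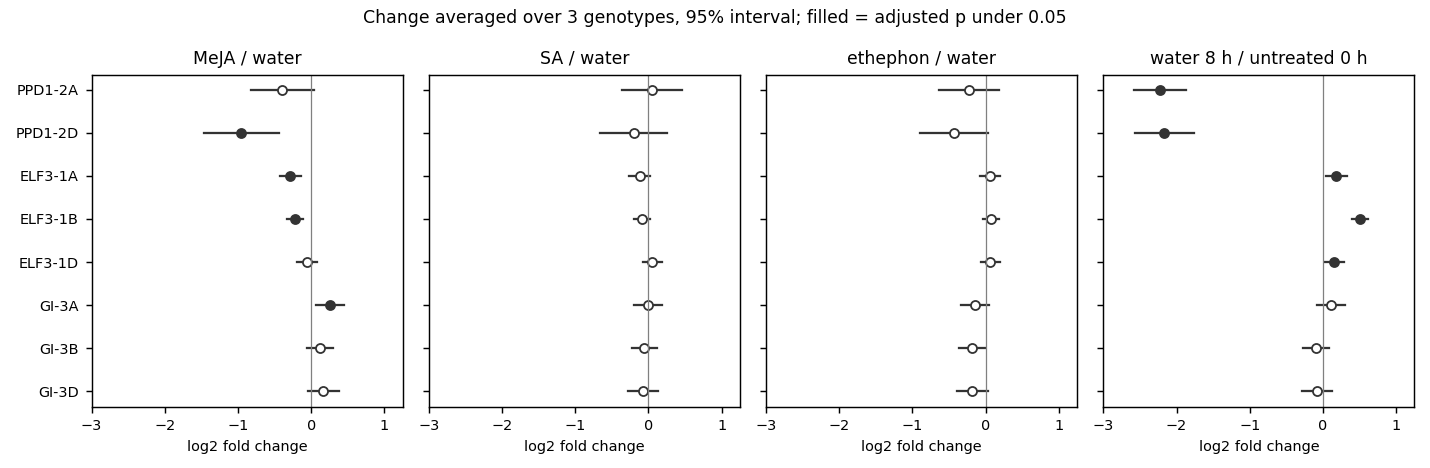
Log2 fold change (x axis) of each copy (rows) after MeJA, SA and ethephon against water and after water at 8 h against untreated at 0 h, averaged over 3 genotypes, with 95% intervals; filled points have an adjusted p under 0.05. The 2 PPD1 copies lie at -2.22 and -2.17 in the last panel, beyond every change after a hormone, and no point is filled for SA or ethephon.

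At 8 h, PPD1-2D, ELF3-1A and ELF3-1B were lower after MeJA than after water in the mean of the genotypes. PPD1-2D had 1.19, 2.14 and 1.79 CPM in DH1 after MeJA, against 3.44, 2.78 and 3.21 CPM after water. It had 1.48, 1.60 and 0.489 CPM in DH2 after MeJA, against 4.25, 2.47 and 2.26 CPM after water. In Superb it had 2.31, 1.45 and 1.76 CPM after MeJA, against 4.12, 3.37 and 1.78 CPM after water. The groups did not overlap in DH1 and DH2 and overlapped in Superb. The mean log2 fold change was -0.95 (SE 0.25, edgeR adjusted p = 0.00195), and leaving out any 1 library kept it between -1.04 and -0.84. Within genotypes PPD1-2D was called in DH2 alone (-1.26, SE 0.44, adjusted p = 0.0322), a call lost without DH2 water replicate 1 (-0.91, adjusted p = 0.205) or without DH2 MeJA replicate 3 (-0.97, adjusted p = 0.159).

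PPD1-2A was not called after MeJA. It ranged from 0.704 to 3.33 CPM in the MeJA libraries, against 1.78 to 3.62 CPM in the water libraries. Its mean log2 fold change was -0.39 (95% interval -0.82 to 0.04, edgeR adjusted p = 0.132), and without DH2 MeJA replicate 1 it was -0.53 (adjusted p = 0.0436). The difference between the PPD1 copies in their response was not resolved: the log2 ratio of PPD1-2D to PPD1-2A averaged -0.26 after MeJA and 0.24 after water, a difference of -0.50 (exact two-sided permutation p = 0.103, adjusted p = 0.253). The summed PPD1 counts fell by 0.67 on the log2 scale (SE 0.20, edgeR adjusted p = 0.00494).

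ELF3-1A was lower after MeJA than after water in each genotype. It had 10.49, 11.4 and 10.4 CPM in DH1 after MeJA, against 12.1, 12.8 and 11.8 CPM after water. It had 13.5, 12.9 and 11.7 CPM in DH2 after MeJA, against 15.001, 14.7 and 17.2 CPM after water. In Superb it had 9.96, 10.7 and 9.69 CPM after MeJA, against 12.5, 12.2 and 14.4 CPM after water. The groups did not overlap within any genotype. The mean log2 fold change was -0.28 (SE 0.07, edgeR adjusted p = 0.00132). Within genotypes it was called in Superb alone (-0.36, SE 0.13, adjusted p = 0.036), and there leaving out any of 5 of the 6 libraries ended the call, with adjusted p of 0.0511 without water replicate 1, 0.164 without water replicate 3, and 0.0827, 0.0564 and 0.113 without MeJA replicates 1, 2 and 3.

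ELF3-1B was also lower, and ELF3-1D was not called. ELF3-1B had 27.0, 29.1 and 30.9 CPM in DH1 after MeJA, against 36.7, 34.3 and 32.3 CPM after water. It had 28.0, 29.6 and 27.2 CPM in DH2 after MeJA, against 31.7, 32.0 and 31.8 CPM after water. In Superb it had 26.9, 28.9 and 25.7 CPM after MeJA, against 29.6, 34.1 and 33.6 CPM after water. These groups, too, did not overlap within any genotype, and the mean log2 fold change was -0.22 (SE 0.06, edgeR adjusted p = 0.00109). How many of all tested genes had groups without overlap was not counted, here or in the other comparisons. No single genotype passed the threshold for ELF3-1B (adjusted p of 0.0507 in DH1, 0.209 in DH2 and 0.0575 in Superb). ELF3-1D had a mean log2 fold change of -0.06 (95% interval -0.19 to 0.08, edgeR adjusted p = 0.501), and summed ELF3 fell by 0.19 (SE 0.05, adjusted p = 0.00157).

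Of the GI copies, GI-3A alone was called higher after MeJA than after water, by a call that rested on single libraries. The TMM factors were lower after MeJA (0.870 to 0.985) than after water (1.00 to 1.12), so the size of this change depends on the scaling. The call was kept with DESeq2's size factors, the only other scaling tried. GI-3A ranged from 57.9 to 73.2 CPM with a median of 67.3 CPM after MeJA, against 41.9 to 66.7 CPM with a median of 57.8 CPM after water. Its mean log2 fold change was 0.25 (SE 0.09, edgeR adjusted p = 0.0269), a call that was lost when any 1 of 5 libraries was left out. The adjusted p was 0.0605 without DH1 water replicate 3, 0.0788 without DH2 water replicate 3, 0.0605 without DH2 MeJA replicate 1, 0.0656 without Superb water replicate 3 and 0.0539 without Superb MeJA replicate 2. GI-3B had 0.12 (-0.05 to 0.30) and GI-3D had 0.17 (-0.04 to 0.37), with edgeR adjusted p of 0.253 and 0.194.

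Among all tested genes, MeJA called 27.7% in DH1, 23.5% in DH2, 22.1% in Superb and 45.4% in the mean of the 3 genotypes. In the mean, 23.7% were higher and 21.7% lower, and 9.22% were lower in DH2 and 9.58% in Superb. The members called numbered 0, 1, 1 and 4 of 8 in the same comparisons, the last of which is near the share over all genes. The median log2 fold change of the members in the mean was -0.14, beside -0.02 over all tested genes. No member passed the test of a difference between genotypes in the MeJA response (unadjusted p from 0.605 to 0.958, adjusted p of 1 in the edgeR test with 2 degrees of freedom), with 14 genes called among all tested (0.0222%) and 2323 at an unadjusted p under 0.05. The comparisons of MeJA, SA and ethephon share their water libraries, and those water libraries are also the ones set against 0 h.

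No member passed edgeR's test after SA, in any genotype or in their mean, and 0 members had an unadjusted p under 0.05. The mean log2 fold changes ran from -0.20 for PPD1-2D (95% interval -0.67 to 0.26) to 0.05 for ELF3-1D (-0.08 to 0.19). DESeq2 called 0 members as well. SA called few genes at all, 0.105% in DH1, 0.0491% in DH2, 0.0206% in Superb and 0.483% in the mean.

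No member passed the test after ethephon either, by edgeR or DESeq2. PPD1-2D had 3.37, 1.57 and 0.38 CPM in DH1 after ethephon, against 3.44, 2.78 and 3.21 CPM after water. It had 2.30, 1.74 and 1.22 CPM in DH2 after ethephon, against 4.25, 2.47 and 2.26 CPM after water. In Superb it had 3.45, 3.24 and 3.22 CPM after ethephon, against 4.12, 3.37 and 1.78 CPM after water. The groups overlapped in each genotype, in DH1 only through replicate 1 (3.37 CPM), a library that held genes of another genotype. The mean log2 fold change was -0.43 (95% interval -0.89 to 0.04, edgeR adjusted p = 0.708). Without the 2 libraries that held genes of another genotype it was -0.71 (adjusted p = 0.835). GI-3B had -0.19 (-0.36 to -0.01, unadjusted p = 0.036, edgeR adjusted p = 0.668), the 1 member with an unadjusted p under 0.05 in the mean, and -0.29 (adjusted p = 0.754) without those 2 libraries. The values of other PPD1 and GI copies also lay lower without them, and none was called. In the mean, PPD1-2A had -0.46 without them (adjusted p = 0.850) and -0.23 with them, GI-3A had -0.28 (adjusted p = 0.816) and -0.15, and GI-3D had -0.30 (adjusted p = 0.835) and -0.18. PPD1-2D in DH1 had -1.48 without them (adjusted p = 0.770) and -0.65 with them, and the GI copies in Superb had -0.22 to -0.18 without them and -0.05 to 0.03 with them. Ethephon called 0.00159% of all tested genes in DH1, 0% in DH2, 0.0571% in Superb and 0% in the mean, where 4618 genes had an unadjusted p under 0.05. For both hormones, no member passed the test of a difference in response between genotypes (unadjusted p from 0.125 to 0.885, edgeR adjusted p of 1 for each). Without the 2 libraries that held genes of another genotype, the lowest unadjusted p of this edgeR test for ethephon was 0.0648 (ELF3-1D), and no member was called.

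Set in order by the median of 9 libraries, PPD1-2A stood at 1.76 CPM after MeJA, 2.12 after ethephon, 2.32 after water, 2.74 after SA and 11.9 untreated. The ranges of the 4 conditions at 8 h overlapped one another, and the untreated range stood alone. ELF3-1B stood at 23.6 CPM untreated, 28.0 after MeJA, 30.9 after SA, 32.3 after water and 34.0 after ethephon, and each condition's range overlapped that of the next in this order. For summed GI the order was 139.0 CPM after ethephon, 152.3 untreated, 155.6 after SA, 164.0 after water and 184.8 after MeJA, with every range overlapping the next.

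In some conditions, libraries that carry the same replicate number held the same rank in GI or PPD1 level in all 3 genotypes, and in others they did not. Untreated replicate 3 had the highest summed GI level in 3 of 3 genotypes. For GI-3B that library had 77.0 CPM in DH1, 90.5 CPM in DH2 and 80.6 CPM in Superb, whereas the other 6 untreated libraries ranged from 60.6 to 68.5 CPM. After ethephon, replicate 1 had the highest and replicate 3 the lowest level of both summed GI and summed PPD1 in 3 of 3 genotypes, but in DH1 and Superb replicate 1 is the library that held genes of another genotype. After water, replicate 3 had the lowest level of both in 3 of 3 genotypes, and after MeJA it had the lowest GI level in 3 of 3. Summed PPD1 in the untreated libraries did not follow such an order: replicate 3 had 42.9 CPM in DH2, the highest there, and 23.9 CPM in DH1 and 18.5 CPM in Superb, the lowest there. After SA, neither GI nor PPD1 had the same highest replicate number in 3 of 3 genotypes. Library depth followed some of these orders and not others. After ethephon it fell from replicate 1 to replicate 3 in each genotype, from 16579971 to 7196235 counts in DH1. Untreated replicate 3 was the deepest untreated library of each genotype (15983167 to 17940396 counts). After water, replicate 3 was the deepest in DH2 (17043524 counts) and the shallowest in DH1 and Superb. A part of depth in these orders was not tested. Means over the 3 genotypes count 9 libraries per condition as separate. The share of the replicate orders in the results was not tested beyond a fit on sums. When the counts of the 3 genotypes were summed by condition and replicate number, so that 3 sums stood for each condition, PPD1-2A (-2.20), PPD1-2D (-2.19) and ELF3-1B (0.51) were called for 8 h against 0 h, with edgeR adjusted p of 1.86e-05, 1.90e-06 and 7.93e-05. In that fit PPD1-2D (-0.93, adjusted p = 0.00764), ELF3-1A (-0.30, adjusted p = 0.0208) and ELF3-1B (-0.20, adjusted p = 0.0451) were called after MeJA, and ELF3-1A and ELF3-1D at 8 h against 0 h and GI-3A after MeJA were not (adjusted p of 0.0626, 0.201 and 0.142).

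Copies of ELF3 and copies of GI changed unequally between 0 h and 8 h. Homoeologs, the matching genes of wheat's A, B and D genomes, were compared within each library by the ratio of their counts, which does not depend on library scaling. The ratio was tested for 7 pairs in 7 contrasts, 49 exact two-sided permutation tests of libraries within genotype or condition, adjusted together. ELF3-1B over ELF3-1A ranged from 1.85 to 3.02 (median 2.37) after water, against 1.46 to 2.33 (median 1.98) untreated. The log2 ratio was higher by 0.32 (exact p = 5e-04, adjusted p = 0.00817) and higher in 3 of 3 genotypes. ELF3-1D over ELF3-1B ranged from 0.496 to 0.626 (median 0.552) after water, against 0.544 to 0.862 (median 0.713) untreated, a log2 difference of -0.35 (exact p = 0.001, adjusted p = 0.00817).

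GI showed such shifts although no copy was called on its own. GI-3B over GI-3A ranged from 1.06 to 1.28 (median 1.16) after water, against 1.205 to 1.499 (median 1.38) untreated. The log2 difference was -0.20 (exact p = 0.00125, adjusted p = 0.00875), with the ratio lower in 3 of 3 genotypes and the ranges overlapping. GI-3D over GI-3A ranged from 0.665 to 0.795 (median 0.698) after water, against 0.708 to 0.866 (median 0.833) untreated, a log2 difference of -0.18 (exact p = 0.0035, adjusted p = 0.0214). GI-3D over GI-3B differed by 0.02 (exact adjusted p = 0.75) and PPD1-2D over PPD1-2A by 0.08 (exact adjusted p = 0.835). A ratio shows unequal change of its copies and not which of them changed, and reads may be shared between copies, since the counting of reads that map to several places is not given.

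**Figure D3:**
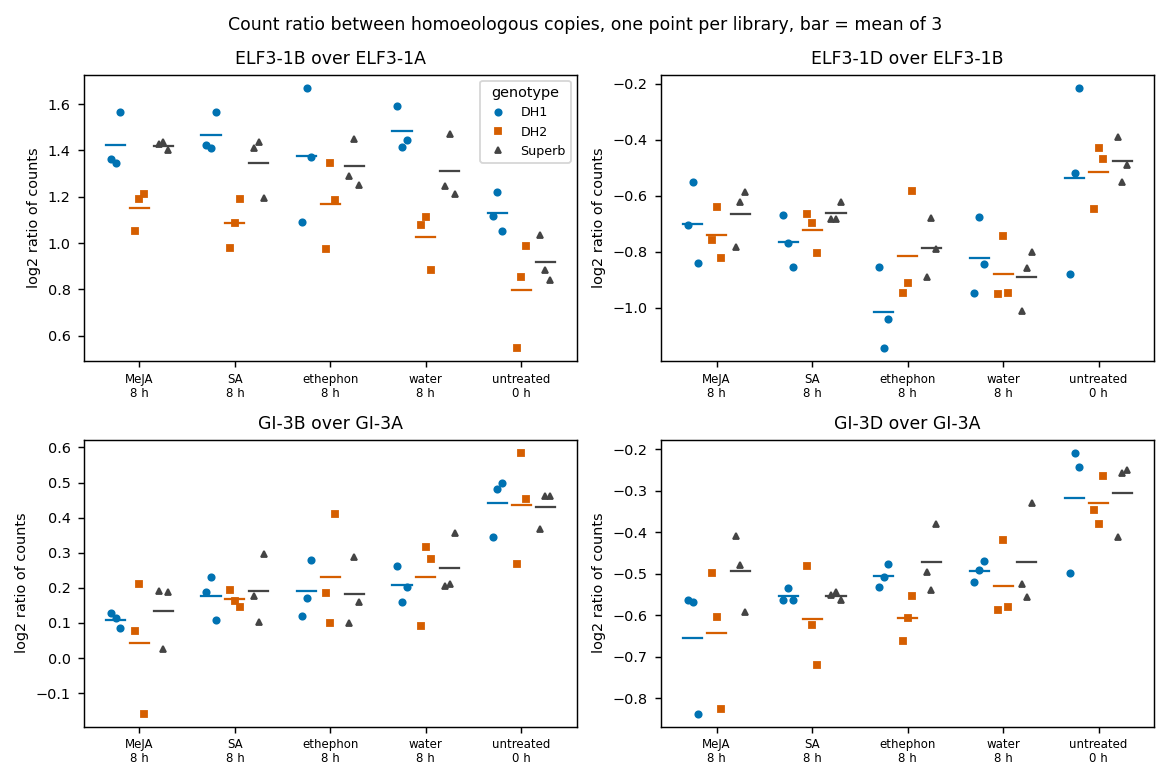
Log2 ratio of counts (y axis) between ELF3 copies and between GI copies in the 5 conditions (x axis), with 1 point per library, a bar at the mean of 3 libraries, and DH1, DH2 and Superb side by side. After water, GI-3B over GI-3A lies lower than in the untreated libraries (median ratio 1.16 against 1.38) and ELF3-1B over ELF3-1A lies higher (2.37 against 1.98), with some overlap in both.

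After MeJA, ELF3-1D over ELF3-1A was higher than after water by 0.22 (exact p = 0.0055, adjusted p = 0.0299) and ELF3-1D over ELF3-1B by 0.16 (exact p = 0.0115, adjusted p = 0.047), while GI-3B over GI-3A differed by -0.14 (exact p = 0.0095, adjusted p = 0.0434). After SA, ELF3-1D over ELF3-1B was higher than after water by 0.15 (exact p = 0.00975, adjusted p = 0.0434). Each of these 4 differences had the same sign in 3 of 3 genotypes, and MeJA and SA were set against the same water libraries. After ethephon no ratio passed the threshold (lowest exact p = 0.372, and 0.294 without the 2 libraries that held genes of another genotype). On counts summed over the genotypes by replicate number, where an exact test of 3 sums against 3 cannot go below p = 0.1, that lowest p was reached by the 4 differences between 8 h and 0 h and by GI-3B over GI-3A after MeJA, whose groups did not overlap. The 2 ELF3-1D ratios after MeJA had exact p of 0.2 and 0.3, and the ratio after SA had an exact p of 0.2.

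ELF3-1A was the 1 member whose level differed between genotypes over the mean of the 5 conditions. It ranged from 11.7 to 18.9 CPM in DH2 with a median of 14.1 CPM, against 9.69 to 14.4 CPM in Superb with a median of 11.97 CPM, and the 2 ranges overlapped. Mean levels were 14.5 ± 1.90 CPM in DH2, 11.9 ± 1.53 CPM in DH1 and 11.8 ± 1.38 CPM in Superb (SD, n = 15 each, over all conditions). The log2 fold change was 0.29 (SE 0.05, edgeR adjusted p = 2.19e-04) for DH2 against Superb, and leaving out any 1 library kept it between 0.26 and 0.31. For DH1 against DH2 it was -0.29 (SE 0.05, edgeR adjusted p = 1.30e-04), and for DH1 against Superb it was 0.00 (95% interval -0.11 to 0.12, adjusted p = 0.986). Without the 2 libraries that held genes of another genotype, DH2 against Superb had 0.29 and DH1 against DH2 -0.31, both still called. The 1 member called stood beside 4.35% of all tested genes called higher in DH2 than in Superb, and 8.79% called lower in DH1 than in DH2.

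The difference had a similar size in the untreated and in the water libraries alone, the only conditions tested singly, where it was not called. ELF3-1A had 16.2, 13.3 and 12.04 CPM in untreated DH2, against 9.97, 12.3 and 11.97 CPM in untreated Superb. After water it had 15.001, 14.7 and 17.2 CPM in DH2, against 12.5, 12.2 and 14.4 CPM in Superb, and the groups did not overlap. The log2 fold change of DH2 against Superb was 0.26 untreated (edgeR adjusted p = 0.625) and 0.27 after water (adjusted p = 0.469). Fewer genes were called at all in 1 condition: 1.27% untreated and 1.64% after water for DH2 against Superb, 1.29% and 1.4% for DH1 against Superb, and 2.66% and 5.3% for DH1 against DH2, with 0 members in each. The other ELF3 copies did not pass the test, with 0.06 (SE 0.04, edgeR adjusted p = 0.394) for ELF3-1B and 0.03 (SE 0.05, adjusted p = 0.823) for ELF3-1D, and summed ELF3 had 0.10 (SE 0.04, adjusted p = 0.0789).

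The ratios to ELF3-1A within libraries also differed between DH2 and Superb. They hold the same ELF3-1A counts as the levels above and are not separate support. ELF3-1D over ELF3-1B differed by -0.04 for DH2 against Superb (exact adjusted p = 0.552). ELF3-1B over ELF3-1A ranged from 1.46 to 2.54 (median 2.11) in DH2, against 1.79 to 2.78 (median 2.44) in Superb. The log2 difference was -0.22 (exact p = 1.01e-04, adjusted p = 0.00248), with the ratio lower in DH2 in 5 of 5 conditions. ELF3-1D over ELF3-1A differed by -0.26 (exact p = 8.71e-04, adjusted p = 0.00817), also lower in 5 of 5 conditions. For DH1 against DH2 the differences were 0.33 (exact p = 1.25e-05, adjusted p = 6.13e-04) and 0.30 (exact p = 6.98e-04, adjusted p = 0.00817). For DH1 against Superb, ELF3-1B over ELF3-1A differed by 0.11 (exact adjusted p = 0.0949), and by 0.13 (exact adjusted p = 0.035) without the 2 libraries that held genes of another genotype.

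Many of the genes next to ELF3-1A were called between DH2 and Superb as well. Of the 40 nearest tested genes in the order of the identifiers, 19 were called (47.5%), 9 higher and 10 lower in DH2, beside 10.7% of all tested genes. Between DH1 and Superb 1 of 40 was called (2.5%), beside 5.34% of all tested genes, and between DH1 and DH2 20 of 40 (50%), beside 20.5%. These shares depended on the window. Among the 20 nearest genes 6 were called between DH2 and Superb (30%), 0 between DH1 and Superb (0%) and 7 between DH1 and DH2 (35%). In the same narrower window, 5 of 20 were called between DH2 and Superb around ELF3-1B (25%) and 3 of 20 around ELF3-1D (15%). Between DH1 and DH2, 7 of 20 were called around ELF3-1B and around ELF3-1D (35% each), as around ELF3-1A. Around ELF3-1B and ELF3-1D 7 and 6 of 40 were called in DH2 against Superb (17.5% and 15%). Around the GI copies 1 to 4 were called there, and around PPD1-2A and PPD1-2D 0 and 3. In DH1 against DH2, 11 and 12 of 40 were called around ELF3-1B and ELF3-1D (27.5% and 30%), and 1 to 7 around the PPD1 and GI copies.

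**Figure D4:**
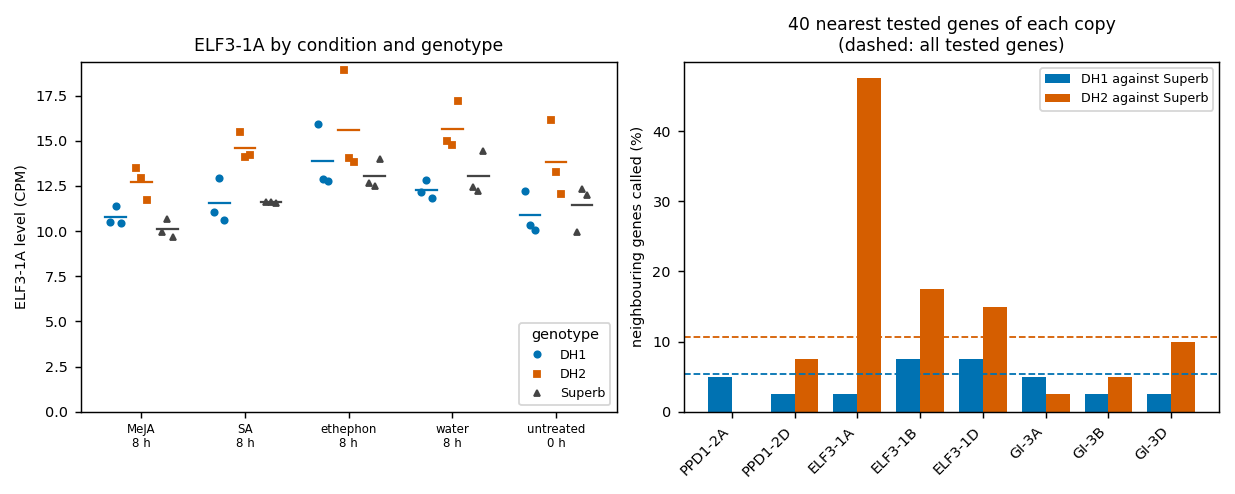
Left, ELF3-1A level in CPM (y axis) by condition (x axis), with 1 point per library and a bar at the mean of 3. Right, the percentage of the 40 nearest tested genes called between each line and Superb (y axis) for each copy (x axis), with dashed lines at the percentage over all tested genes; ELF3-1A has 47.5% in DH2 and 2.5% in DH1, against dashed lines at 10.7% and 5.34%.

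No PPD1 or GI copy passed the test between genotypes. Over the 5 conditions, the log2 fold change of DH2 against Superb was 0.17 (95% interval -0.14 to 0.49) for PPD1-2A and -0.21 (-0.58 to 0.16) for PPD1-2D, and that of DH1 against Superb was 0.05 (-0.26 to 0.37) and -0.21 (-0.57 to 0.15). For the GI copies it ran from -0.12 to -0.04 in DH2 against Superb and from -0.02 to 0.02 in DH1 against Superb. The lowest edgeR adjusted p among these PPD1 and GI values was 0.376. In the untreated libraries PPD1-2D had a log2 fold change of 0.64 in DH2 against Superb (SE 0.30, adjusted p = 0.637), with DH2 untreated replicate 3 at 28.4 CPM.

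The genes most like each family over the 15 group means were sought among 46380 genes, and are given by identifier. For PPD1 they were TraesCS1B01G134900 (Pearson r = 0.983) and TraesCS2A01G297800 (r = 0.981). TraesCS2A01G297800 ranged from 6.68 to 9.97 CPM after water, against 17.1 to 29.9 CPM untreated. For ELF3 they were TraesCS4D01G202600 (r = 0.966) and TraesCS2D01G410800 (r = 0.962), and for GI they were TraesCS5B01G181000 (r = 0.916) and TraesCS7B01G476400 (r = 0.914). An r above 0.9 was found for 1293 genes with PPD1, 372 with ELF3 and 3 with GI, and these values describe group means that share libraries and scaling. Between members, PPD1-2A and PPD1-2D had r = 0.940, GI-3B and GI-3D r = 0.946, GI-3A and GI-3B r = 0.731, and ELF3-1A and ELF3-1B r = 0.486 over the same 15 groups.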

How the data were processed

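RNA of wheat spikelets was sequenced as paired-end libraries made with a TruSeq RNA kit, per the labels. The deposited values are raw counts of reads per gene, 1 column per library, and no scaling by the authors shows in them. The submitters' processing notes name STAR 2.5.3a, an aligner, and DESeq2. How reads were counted, by which program, with what strand setting and with what rule for multiply mapped reads is not given in the sources used here, so a gene, its homoeologs and any antisense partner may share reads.

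The counts were tested with edgeR 4.0.16 in R 4.3.3. filterByExpr over the 15 groups kept 63091 genes with 99.7% of counts. TMM set the library scaling, and 1 quasi-likelihood fit took all 45 libraries with a coefficient for each group, which left 30 residual degrees of freedom. A call is a Benjamini-Hochberg adjusted p under 0.05 over all tested genes. A standard error is the size of the log2 fold change over the root of its F, and intervals are 95% intervals. Levels are CPM computed with TMM factors. Count ratios took a pseudocount of 0.5 and were tested by exact permutation in Python 3.11.15. The genes of another genotype in a library were sets with a median of at least 5 CPM in their own genotype and at most 5% of it in each other one.

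The 8 members are always named, with the 2 genes most correlated with each family over the 15 group means among genes whose mean log2 CPM was 1 or more. The members, lists and tests were chosen with earlier results of these data known. Other pathway genes and sequences were not used here, since no identifier matched the reference table. Alternatives were DESeq2 1.42.0, DESeq2's size factors, no filter, a replicate block, leaving out libraries, fewer groups, sums over genotypes by replicate number, and genotypes paired by condition and replicate number, the last 2 chosen after seeing the data. The labels give no meaning to a replicate number, and same-numbered libraries of DH2 and Superb correlated above 0.1 in their deviations in all 3 pairs of 4 of 5 conditions. The fit and the ratio test were tested on simulated data.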

Additional observations from a re-analysis of the deposited data

How the results depend on the processing

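No called result reversed its direction. The falls of PPD1-2A and PPD1-2D and the rise of ELF3-1B between 0 h and 8 h, in each genotype and in the mean, and the changes of PPD1-2D, ELF3-1A and ELF3-1B after MeJA in the mean, were called under every alternative run for them. Over the alternatives that leave out no single library, 896 values of single copies kept their side of the threshold and, if uncalled, stayed within their standard error, 43 uncalled ones moved further, 18 lost a call and 3 gained one. PPD1 counts were as low as 3 per library, which limits the precision of its changes at 8 h.

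For 8 h against 0 h in the mean, ELF3-1A had log2 fold changes of 0.17 with DESeq2's size factors, 0.15 with no filter, 0.17 with DESeq2 and 0.23 with genotypes summed, and ELF3-1D had 0.14, 0.12, 0.14 and 0.16. All 8 missed the threshold, so that 1 member was called higher under each. Leaving out 1 library gave 0.15 to 0.22 for ELF3-1A and 0.10 to 0.20 for ELF3-1D, with 1 to 3 members called higher. For MeJA in the mean, GI-3A had 0.23 with no filter and 0.29 with genotypes summed, with 0 members called higher under both, and 0.21 to 0.29 and 0 to 1 members with 1 library left out.

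Within Superb, ELF3-1A after MeJA had -0.39 with no filter, -0.38 with only the 2 groups fitted and -0.35 with DESeq2, with 0 members called lower under each, and -0.41 to -0.29 with 1 library left out. PPD1-2D in DH2 after MeJA had -1.29 with only the 2 groups, with 0 members called, and -1.53 to -0.91 with 1 library left out. With 1 library left out, 0 to 1 members were called lower after MeJA in each genotype, and 1 was called in DH1 with only the 2 groups. ELF3-1A for DH2 against Superb had 0.26 in untreated and 0.27 in water libraries alone, and for DH1 against DH2 -0.34 and -0.35, with 0 members called. Without the 2 ethephon libraries that held other genotypes' genes, 1 ratio was called for DH1 against Superb, where 0 were called with them. The cause of these changes was not tested.

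In no comparison of a condition with water or untreated libraries within a genotype did every same-numbered pair correlate above 0.1. This limit of 0.1 was not set against correlations expected without pairing, so it does not show whether libraries were paired. With a replicate block, 1 member was called lower after MeJA in DH1 (ELF3-1B, -0.25, adjusted p = 0.0377) and 2 in Superb (ELF3-1B added, -0.25, adjusted p = 0.0401), and summed ELF3 passed in Superb (-0.21, adjusted p = 0.0495). The block changed no other call. Within a condition, every same-numbered pair correlated above 0.1 for DH2 with Superb in 4 of 5 conditions, DH1 with DH2 in 2 and DH1 with Superb in 1. A replicate block for each condition and number, an alternative chosen after seeing the data, changed no genotype call of a copy or a ratio: ELF3-1A had 0.29 for DH2 against Superb (edgeR adjusted p = 4.07e-05) and -0.28 for DH1 against DH2 (adjusted p = 2.12e-05). DESeq2 was not run for the test with 2 degrees of freedom.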
